A study of Mus musculus with 10 samples.

Results

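Collecting vessel lymphatic endothelial cells (LECs) were picked from single sorted cells of mouse ear skin by a score of 12 genes. A well of a Smart-seq plate was kept when it had at least 50000 gene counts and 1000 detected genes, which left 2664 of 3048 wells. The score was the mean log2(CPM + 1), CPM being counts scaled to the same library size in every well, of 7 genes of collecting vessels (Bgn, Ccdc3, Mmrn2, Plvap, Procr, Tgm2 and Tsc22d1) minus that of 5 genes of lymphatic capillaries (Reln, Piezo2, Slco2b1, Pcsk6 and Dlg1). Wells above the 80th percentile of the score in the pooled Cre-negative wells were called collecting vessel LECs, which gave 345 of the 2664 wells (13.0%), 259 of them on control plates and 86 on deleted plates. These 12 genes chose the wells, so their difference between the chosen and the other wells is a description and no result.

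The study deleted the angiopoietin receptors Tie1, or Tie1 and Tie2 (gene Tek), from lymphatic vessels of newborn mice. Each of 4 groups had 2 plates, numbered replicate 1 and 2. Control pups were Tie1fl/fl or Tie1fl/fl,Tie2fl/fl without Cre, and deleted pups (Tie1iΔLEC and Tie1 Tie2iΔLEC) carried the same floxed alleles with Prox1-CreERT2, a Cre active only in Prox1-expressing cells exposed to 4-hydroxytamoxifen (4-OHT). Both control and deleted pups received 4-OHT from P1 to P5. The labels enter these days as the age, while the study sampled the LECs weeks later. Live CD31+ PDPN+ CD45- CD11b- Ter119- cells were sorted to 1 cell per well. Both replicate 1 plates of Tie1fl/fl came from females and the other 6 plates from males. Same-numbered plates of a strain shared the layout of their table and had consecutive plate identifiers. The number of mice behind a plate was not given, so the plate was the sample (n = 2 per group), and p-values measure the spread between plates only. Plates held 71249844 to 110741537 counts in all.

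Lymph enters through blind-ended capillaries, whose LECs have button-like junctions and high LYVE1, and leaves the tissue through collecting vessels. Collecting vessel LECs lie on a continuous basement membrane, are enclosed by smooth muscle cells and carry valves, and they express little LYVE1. The angiopoietins ANGPT1 and ANGPT2 bind Tie2, Tie1 modulates that receptor, and the pathway signals through PI3K and AKT to keep the transcription factor FOXO1 out of the nucleus, where FOXO1 would raise Angpt2 transcription.

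The 300 bases around the start of 3 genes are shown because these genes stood high together in the chosen wells. They are Procr and Ccdc3 of the score, and Slco2a1, which the score did not use. Sequences run 5′ to 3′ on the gene's strand, the plus strand for all 3, from 250 bases before to 50 after the start (RefSeq, GRCm38.p6). The start is that of 1 RefSeq transcript, and the GENCODE gene begins upstream of it for Procr and, much farther away, for Slco2a1. An entry was found for 8 of the 12 score genes. Capitals mark matches, on either strand, to CACCC, a motif of Krüppel-like factors whose reverse complement is GGGTG, to AGGAAG, an ETS core read as CTTCCT on the other strand, and to TGACTCA, an AP-1 site read as TGAGTCA on the other strand.
Procr, chr2:155750967-155751266: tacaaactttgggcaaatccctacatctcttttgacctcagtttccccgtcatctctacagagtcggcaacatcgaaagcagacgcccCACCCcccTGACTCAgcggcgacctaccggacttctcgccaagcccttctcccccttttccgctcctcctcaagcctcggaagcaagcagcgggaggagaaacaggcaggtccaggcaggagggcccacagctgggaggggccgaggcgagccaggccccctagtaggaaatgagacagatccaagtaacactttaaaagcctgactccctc
Ccdc3, chr2:5137526-5137825: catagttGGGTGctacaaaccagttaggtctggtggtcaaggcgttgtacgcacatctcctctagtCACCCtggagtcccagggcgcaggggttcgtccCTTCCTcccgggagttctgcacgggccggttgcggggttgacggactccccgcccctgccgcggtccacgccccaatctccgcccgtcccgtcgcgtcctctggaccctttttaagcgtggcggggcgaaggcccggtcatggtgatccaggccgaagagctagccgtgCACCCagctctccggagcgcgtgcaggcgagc
Slco2a1, chr9:103008237-103008536: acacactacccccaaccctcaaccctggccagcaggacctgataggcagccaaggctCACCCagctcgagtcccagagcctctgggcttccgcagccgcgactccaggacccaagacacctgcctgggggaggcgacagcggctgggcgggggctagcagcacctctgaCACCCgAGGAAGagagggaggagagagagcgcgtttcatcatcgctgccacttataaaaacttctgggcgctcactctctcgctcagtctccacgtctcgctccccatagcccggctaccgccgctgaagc
The Procr promoter held 1 CACCC and 1 TGACTCA, 3 bases apart. Ccdc3 held 3 CACCC matches and 1 AGGAAG, and Slco2a1 had 2 CACCC and 1 AGGAAG. Among 32851 promoters of this length, 57.5% held CACCC, 35.4% AGGAAG and 5.2% TGACTCA, so CACCC is common and its presence says nothing on which factor binds.

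Wells chosen as collecting vessel LECs made up a smaller share of both plates with Tie1 deleted, and almost none of the wells with both receptors deleted. The share counts wells by their score. Fewer collecting vessel cells and lower levels of the score genes in such cells therefore cannot be told apart. On the Tie1fl/fl plates without Cre, 50 of 271 wells (18.5%, exact 95% binomial interval 14.0 to 23.6) and 61 of 340 wells (17.9%, 14.0 to 22.4) were chosen. With Cre, 29 of 323 (8.98%, 6.10 to 12.6) and 46 of 344 (13.4%, 9.96 to 17.4) were chosen. The means were 18.2% ± 0.36 and 11.2% ± 3.11 (SD, n = 2), and the plates of the groups did not overlap. On the Tie1fl/fl,Tie2fl/fl plates without Cre, 78 of 352 wells (22.2%, 17.9 to 26.9) and 70 of 333 wells (21.02%, 16.8 to 25.8) were chosen. With Cre, 9 of 348 (2.59%, 1.19 to 4.85) and 2 of 353 (0.567%, 0.0687 to 2.03) were left. The means were 21.6% ± 0.80 and 1.58% ± 1.43, a difference of -20.0 percentage points against -7.02 for Tie1 alone. The intervals cover counting error only. The threshold came from the control wells, so these shares carry no test.

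A threshold that ignored genotype, the 80th percentile over all 2664 wells, took 533 wells and allowed a test over plates. The share above it was 30.6% and 26.5% in Tie1fl/fl controls and 15.8% and 19.8% after Tie1 deletion. It was 34.4% and 28.5% in Tie1fl/fl,Tie2fl/fl controls and 5.75% and 1.42% after double deletion. All 4 deleted plates were below all 4 control plates. The mean difference over both strains was -19.3 percentage points (two-sided exact permutation test within strain, p = 0.056, the smallest p that 36 arrangements allow). Within a strain the differences were -10.8 points for Tie1 and -27.9 points for Tie1/2 (exact permutation p = 0.33 each, the smallest possible for 2 plates against 2). The effect of Tie1/2 deletion minus that of Tie1 deletion was -17.1 points (exact permutation p = 0.111, smallest possible 0.056).

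**Figure D1:**
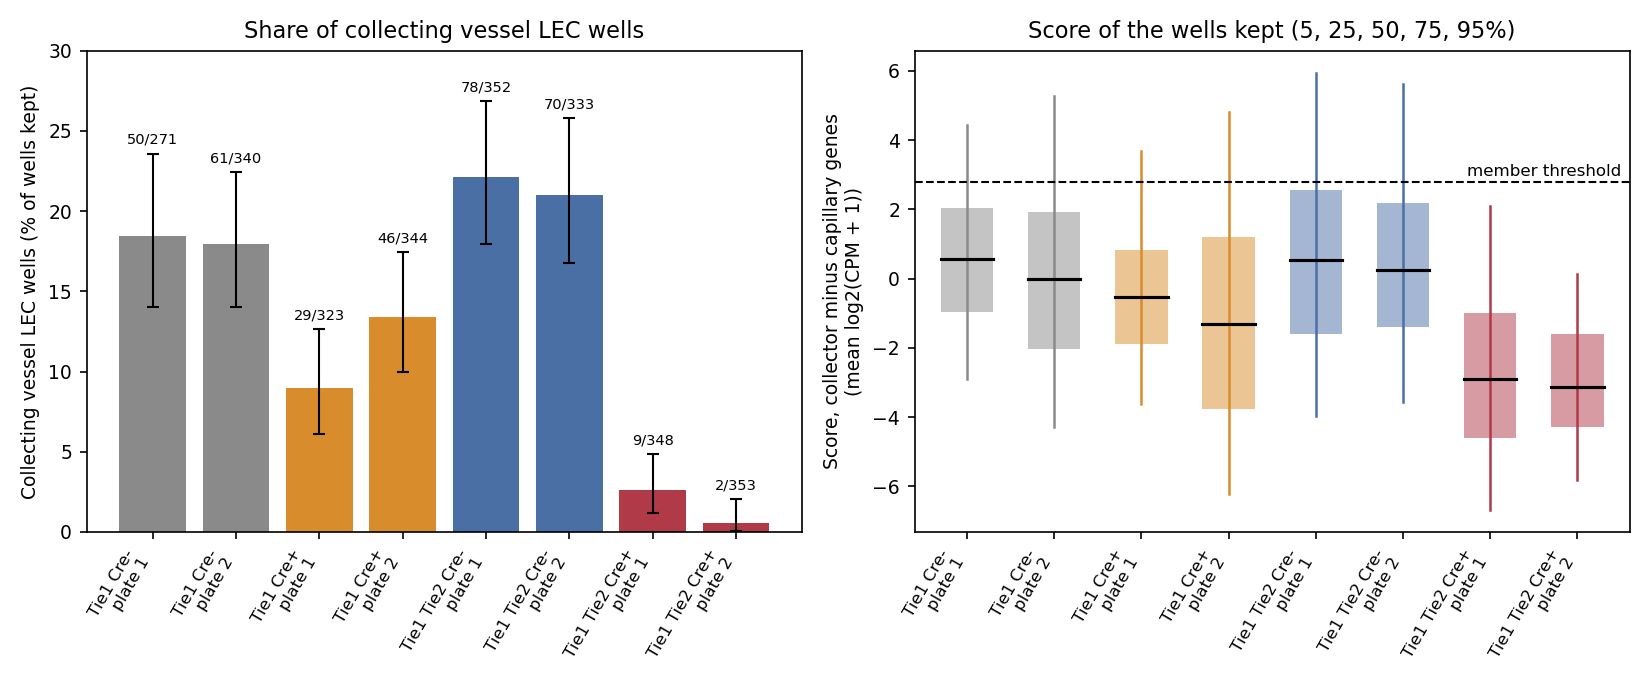
Left, share of wells called collecting vessel LECs per plate, in percent of wells kept with exact 95% binomial intervals; right, the score of the kept wells by plate, with the median as a line, the middle 50% of wells as a box and the 5th to 95th percentile as a thin line. The 4 control plates lie between 17.9% and 22.2%, the Tie1-deleted plates at 8.98% and 13.4%, and the double-deleted plates at 2.59% and 0.567%.

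The median of the score was lower on every deleted plate than on the controls of its strain. It was 0.57 and -0.01 in Tie1fl/fl controls, -0.52 and -1.31 after Tie1 deletion, 0.54 and 0.26 in Tie1fl/fl,Tie2fl/fl controls and -2.89 and -3.14 after double deletion. The low end of the score was counted in the same way. Wells at or under the 20th percentile of the control score, -2.02, made up 14.0%, 25.3%, 19.9% and 19.8% of the control plates, 22.9% and 44.2% of the Tie1-deleted plates and 62.6% and 68.8% of the double-deleted plates. The Tie1-deleted plates overlapped the controls there, and the double-deleted plates did not. The collecting vessel genes had a mean log2(CPM + 1) of 6.797 and 7.1707 in Tie1fl/fl,Tie2fl/fl controls and 3.6854 and 3.9776 after double deletion. The capillary genes had 6.1917 and 6.6329 against 6.4253 and 6.906. With Tie1 deletion the collecting vessel genes went from 7.6254 and 6.1247 to 6.9137 and 4.8215. The capillary genes went from 7.0041 and 6.0045 to 7.2522 and 6.0084. The scores thus fell mostly through the collecting vessel genes.

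The score had no gap at the threshold of 2.80. The lowest members had scores of 2.82, 2.85 and 2.85, the highest other wells 2.80, 2.79 and 2.78, and 158 wells lay within 0.5 of it. The threshold is a percentile of the score, so the class is a range of it, and whether its wells form a cluster of their own was not tested. Members and other wells had like depth. Members on the Tie1fl/fl control plates had a median of 276460 and 224810 counts a well, and the other wells 265460 and 229740. With each well thinned to 50000 counts, members numbered 46 and 60 in Tie1fl/fl controls, 26 and 46 after Tie1 deletion, 80 and 70 in Tie1fl/fl,Tie2fl/fl controls and 9 and 4 after double deletion.

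The score genes in the chosen wells are given as values. Mean CPM over the plates was 2540 in members against 1054 in other wells for Tgm2, a transglutaminase that cross-links matrix proteins, and 2102 against 922 for Plvap, which forms the diaphragms of fenestrae and caveolae. Mmrn2, a matrix glycoprotein of endothelial cells, was at 558 against 178, and Procr, the endothelial receptor of protein C, at 342 against 84.2. Ccdc3, a secreted protein, was at 566 against 121, the proteoglycan Bgn at 688 against 314 and the transcriptional regulator Tsc22d1 at 1010 against 386. On the other side, the mechanically gated channel Piezo2 was at 32.0 against 271, the organic anion transporter Slco2b1 at 114 against 511, the proprotein convertase Pcsk6 at 107 against 490, the scaffold Dlg1 at 35.8 against 173 and Reln, a secreted matrix protein, at 340 against 1037.

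Not every chosen well held the whole signature. On 4 of the 8 plates nearly every well had a few counts of highly expressed genes, so a level of at least 50 CPM in a well was used in place of detection. At that level the 259 control members held a median of 6 of the 7 collecting vessel genes, all 7 in 84 wells (32.4%) and at least 6 in 183 (70.7%). The other 1037 control wells held a median of 4, and all 7 in 48 (4.63%). The most selective genes were Ccdc3, at 50 CPM in 82.6% of control members and 28.5% of other control wells, Mmrn2 (71.0% and 30.6%) and Procr (69.1% and 28.9%). Tgm2 was broad, at 99.2% and 94.1%. Reln stayed at that level in 68.3% of the members and Piezo2 in 7.72%.

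After Tie1 deletion 15 of 75 members (20.0%) held all 7 genes and 41 (54.7%) at least 6. After double deletion none of the 11 members held all 7, 1 held 6, and the median was 5. In these 11 wells Plvap, Tgm2 and Tsc22d1 each had counts throughout, while Mmrn2 had counts in 1 well only. The 11 wells thus passed the threshold with a narrower set of genes than the control members.

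Outside the score, the chosen wells shared a further set of genes. Genes were ranked by their log2 ratio of summed CPM, members over other wells, within each plate and with a pseudocount of 1 CPM. Of 8393 genes at 20 CPM or more, 54 (0.643%) were higher in the members of 8 of 8 plates and 220 (2.62%) lower. The double-deleted plates held 9 and 2 members and moved many of these ratios. In the other 6 plates, 310 genes (3.69%) were higher in each and 495 (5.9%) lower. The wells had been chosen on their own expression, so no test was made of these differences.

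The gene with the largest ratio was Slco2a1, a prostaglandin transporter. Members on the control plates had 237, 534, 277 and 276 CPM and the other wells 55.9, 20.9, 48 and 10.8. After Tie1 deletion members had 160 and 327 CPM and the other wells 18.8 and 2.51. After double deletion members had 1.07 and 1.94 CPM, next to 0.667 and 1.75 in the other wells. The log2 ratio was 3.88 ± 1.68 (SD) over the 6 plates without double deletion, and 35.9% of control members against 4.53% of other control wells were at 50 CPM. It was 2.96 ± 2.22 over all 8 plates, the largest of the 54 genes higher in 8 of 8. Among these 54 genes Foxp2, a forkhead transcription factor, came next (1.63 ± 0.88 over 8 plates), with 266, 73.4, 201 and 299 CPM in control members against 45.6, 35.5, 63.1 and 71.3. It was at 50 CPM in 52.5% of control members and 21.1% of other control wells.

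The remaining genes higher in 8 of 8 plates moved less. Mean log2 ratios over the 8 plates were 0.61 ± 0.32 for the junction molecule Esam, 0.87 ± 0.71 for the hypoxia-regulated factor Epas1, 0.85 ± 0.51 for the actin-severing gelsolin Gsn, 0.80 ± 0.25 for the epoxide hydrolase Ephx1, 0.90 ± 0.48 for the natriuretic peptide receptor Npr2 and 0.68 ± 0.49 for the adenylyl cyclase Adcy4. Pla2g6, a phospholipase, Usp21, a deubiquitinase, Trim47, Tm6sf1 and Tmem86a ranged from 0.76 to 1.07. Gm20412 (1.29 ± 0.17) and Rprd1b (0.98 ± 0.40) overlap Tgm2 on the genome, and Smart-seq reads carry no strand, so they cannot be told apart from it. With members taken above the 90th percentile, Npr2, Pla2g6 and Adcy4 changed sign.

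In the 6 plates without double deletion the same ranking was made after those values were seen. After Slco2a1 came B3gnt7 (log2 ratio 3.44 ± 1.61) and Gcnt1 (2.82 ± 0.99), both glycosyltransferases, Parm1 (3.31 ± 0.97), Tmem158 (2.52), Tgfa (2.45 ± 0.91), a ligand of the EGF receptor, the monooxygenase Fmo2 (2.36), Lsr (2.34 ± 0.75), a protein of tricellular junctions, Apoe (2.03 ± 0.99), which carries lipids, and Bmp4 (2.01 ± 0.41), a secreted BMP ligand. Gxylt2 and Il13ra1 were named by the same rule, as were Gm4673, Gm26776 and Gm15587, which overlap Lsr, Ccdc3 and Nos3 and may hold their reads.

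Values of 2 further genes, chosen after they were seen, are given in full. Nos3, the endothelial nitric oxide synthase, had 339, 286, 381 and 599 CPM in control members against 109, 46.9, 150 and 189 in the other wells, a log2 ratio of 1.99 ± 0.57 over the 6 plates. Thbd, or thrombomodulin, which with Procr activates protein C, had 478, 625, 406 and 492 CPM against 133, 246, 149 and 173 (1.59 ± 0.41). No control plate had other wells as high as its members for either gene. Nos3 was at 50 CPM in 57.1% of control members and 21.7% of other control wells, and Thbd in 47.1% and 27.0%. Vwf, the platelet-binding von Willebrand factor, was rare, at 50 CPM in 4.63% and 0.868%, and higher in 5 of the 6 plates. Of the 8 genes of the clotting list, 1 was higher and 1 lower in 6 of 6 plates, where 2.5% of the 14618 genes at 1 CPM or more were higher and 7.12% lower.

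**Figure D2:**
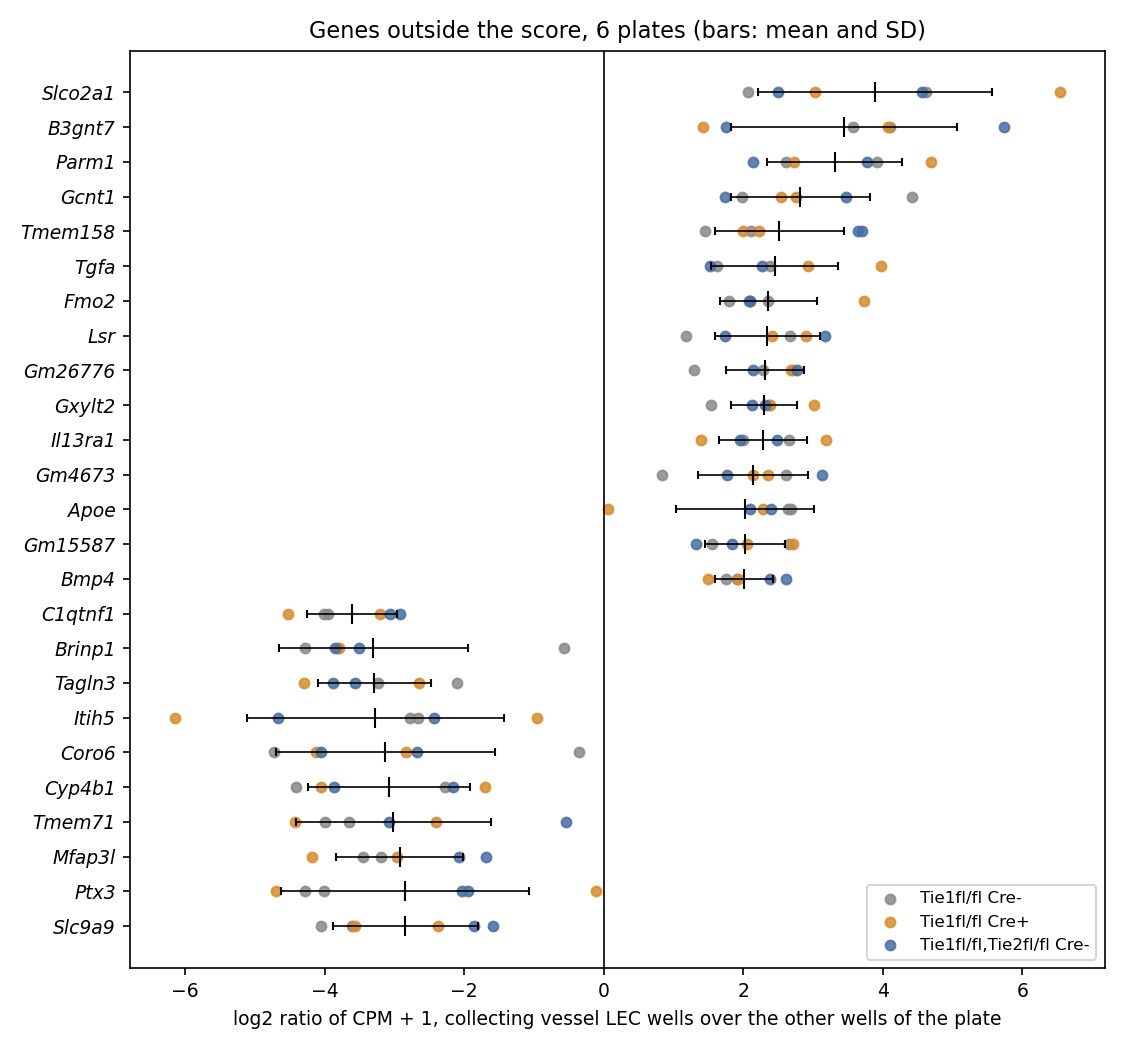
Log2 ratio of CPM + 1, collecting vessel LEC wells over the other wells of the same plate, for the 15 highest and 10 lowest genes outside the score, 1 point per plate for the 6 plates without double deletion and bars for mean and SD. Slco2a1 and B3gnt7 have the largest positive means, 3.88 and 3.44, and C1qtnf1 the largest negative one, -3.61.

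Members on the plates without double deletion were low in LYVE1, a hyaluronan receptor of capillary LECs that the score did not use. Lyve1 was at 498, 625, 199 and 268 CPM in control members and 2016, 2584, 1998 and 2016 in other control wells. The log2 ratio was -2.32 ± 0.64 over these 6 plates. The 11 members of the double-deleted plates were not low, with 2138 CPM on replicate 1, within the range of the other wells of the control plates, and 2920 CPM on replicate 2, above it, although the other wells beside them had still more (3745 and 3669). By Lyve1 these 11 wells do not match their label. Most control members still held Lyve1, since 84.2% of them and 96.0% of other control wells had 50 CPM. Further genes of the capillary list were Tppp3 (-1.01 ± 0.21, lower in 8 of 8), Ccl21a (-0.58 ± 0.06), the chemokine that draws dendritic cells, and the scavenger receptor Stab1 (0.01 ± 0.12). Of the 4 genes, 3 were lower in 6 of 6 plates and none higher, when 7.12% of 14618 genes at 1 CPM or more were lower and 2.5% higher.

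The genes with the largest negative ratios in 8 of 8 plates were Slc9a9, an endosomal sodium-proton exchanger (26.2 CPM in other wells and 0.698 in members), Col3a1, a fibrillar collagen (88.3 and 16.9), Ptx3, a pattern recognition protein (53.3 and 12.7), the mannose receptor Mrc1 (64.9 and 11.7), the oxytocin receptor Oxtr (98.2 and 27.1) and the imprinted RNA H19 (256 and 94.2). Slc22a23, Coro6, Prnp and Tmem71 completed that list. In the 6 plates, C1qtnf1 (-3.61 ± 0.64) led, with Brinp1, Tagln3, Itih5 (-3.28 ± 1.84), Coro6, Cyp4b1, Tmem71, Mfap3l, Ptx3 and Slc9a9 from -3.30 to -2.84. The atypical chemokine receptor Ackr2 (-1.68 ± 0.93) and Cxcl12 (-2.77 ± 0.84) were lower too.

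Identity markers of endothelium and of lymphatic endothelium were shared by both kinds of wells. Prox1, the master transcription factor of LECs, was at 699, 447, 566 and 712 CPM in control members and at 50 CPM in 75.3% of them against 86.0% of other control wells. Of 9 pan-lymphatic genes, 1 was higher and 3 were lower in 6 of 6 plates, beside 2.5% and 7.12% of all genes. Flt4, the VEGF-C receptor VEGFR3, had a log2 ratio of -0.48 ± 0.18. Of 5 pan-endothelial genes 2 were higher. The caveolar coat gene Cav1 was slightly higher (0.36 ± 0.14), 1 of 2 such genes among 6, beside the same 2.5% of all genes.

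Valve genes did not follow the score on the 6 plates without double deletion. None of 9 valve genes was higher or lower in 6 of 6 plates, and their median log2 ratio was 0.00. Cldn11 was 0.00 ± 0.39, Foxc2, a valve transcription factor, 0.22 ± 0.29, Gata2, which acts upstream of it, 0.28 ± 0.24, Gja4 0.12 ± 0.31 and Itga9, the fibronectin-binding integrin of valve leaflets, -0.19 ± 0.45. Cldn11 was at 50 CPM in 39.8% of control members and 39.0% of other control wells. On the double-deleted plates no valve gene passed the test of Tie1/2 deletion within members. The median log2 change of the 9 was -0.73, next to -0.84 over all genes, and 3 of them had a positive change. Foxc2 was at 60.4 and 0 CPM there against 344 and 412 in control members, Itga9 at 99.9 and 77.7 against 212 and 272, and Cldn11 at 393 and 1.94 against 286 and 394. In the other direction, Gdf10, a secreted ligand of the TGF-β family, was at 1786 and 728 CPM against 169 and 177 (edgeR adjusted p = 0.111), and Neo1, the receptor neogenin, at 648 and 928 against 40.6 and 110 (adjusted p = 0.0896). Wells in the upper range of the valve list made up 33.3% of the 9 members of double-deleted replicate 1 and 5.61% of its other wells, and none of the 2 members of replicate 2.

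Matrix and junction lists were mixed, and their counts stand beside the 2.5% of all genes that were higher and the 7.12% that were lower in 6 of 6 plates. Of 16 basement membrane and elastic fibre genes, 1 was higher and 5 were lower in 6 of 6 plates. Sparc, a collagen-binding matrix protein, was higher (1.53 ± 0.52), while Col4a1 (-0.53 ± 0.14) and Lamc1 (-0.84 ± 0.40), subunits of collagen IV and laminin, were lower in 8 of 8 and Eln, the elastin gene, was at 0.08 ± 0.15. Of 13 junction genes 1 was higher and 2 were lower, of 10 VEGF-family genes 2 were lower, of 9 signals to mural cells 2 were higher and 1 lower, of 9 chemokine genes 4 were lower, and of 14 PI3K and FOXO genes none went 1 way in 6 of 6. Of 14 lymphatic transcription factor genes 1 was higher and 1 lower. In lists of this size the shares over all genes come to about 1 gene or fewer in a direction, so counts of 0 or 1 are near the background.

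Most markers of other cells were low in the chosen wells, with exceptions given below. Ptprc (CD45), a gate of the sort, was at 50 CPM in no control well. The fibroblast gene Dcn was at 38.7 CPM in members and 41.3 in other wells, the mural gene Pdgfrb at 15.1 and 3.56, the keratinocyte gene Krt5 at 23.6 and 39.0 and the B cell gene Cd79a at 5.09 and 10.7, and Cd3e had none. None of these lists had a gene higher in 6 of 6 plates. The 6 fibroblast genes summed to 515 CPM in the members of Tie1fl/fl,Tie2fl/fl Cre- replicate 1, where Dcn was at 231 CPM, and to at most 82.3 in any other plate's members. The 9 mural genes summed to 242 and 158 CPM in the other wells of the double-deleted plates and to at most 76.9 in those of the other plates. Kcnj8, a potassium channel subunit of mural cells, was at 149 and 134 CPM over all kept wells of the double-deleted plates against 8.75 and 17.2 in their controls (log2 3.48, SE 0.60, edgeR adjusted p = 0.0416). On double-deleted replicate 1 Myh11 was at 18.2, Notch3 at 7.56 and Rgs5 at 7.31 CPM, against at most 4.89, 3.48 and 1.83 on the 6 plates without double deletion, while double-deleted replicate 2 had 0.821, 0.905 and 0.588. Acta2, at 27.5 and 10.6 CPM on the double-deleted plates, and Tagln, at 12.2 and 4.37, were in or near the range of the other plates, which reached 36.1 and 10.7. Keratinocyte genes had lower values on the double-deleted plates. The 4 of them had a median log2 change of -3.15 with Tie1/2 deletion over all kept wells, next to 0.00 over all genes. Of the 4, 1 was called lower, beside 0.75% of the 20279 genes tested. It was Krt5, at 77.9 and 72.9 CPM in controls and 5.26 and 14.9 after deletion (log2 -2.92, SE 0.44, edgeR adjusted p = 0.0249), while Krt14 was at 74.8 and 57.0 against 3.96 and 10.5 (adjusted p = 0.122). In the members of Tie1fl/fl,Tie2fl/fl Cre- replicate 1 Krt5 and Krt14 were at 159 and 128 CPM, and in the double-deleted members both were at 0. The part of these markers in the results was not tested. Of the blood endothelial list, 6 of 8 genes reached 1 CPM, and 1 was higher in 6 of 6 plates. That gene was Emcn, endomucin, at 425, 405, 429 and 459 CPM in control members and 240, 221, 174 and 229 in other control wells, while Flt1, which defines blood endothelium, was at 50 CPM in 1.93% and 1.06% of them. Wells in the upper range of the blood endothelial list made up 30.4% of members and 15.4% of other wells. With Tie1/2 deletion 1 of 5 tested genes of this list had a positive change within members and 3 of 7 over all kept wells, and none was called. Sox17 was at 0.0521 and 0.295 CPM in members of the Tie1fl/fl,Tie2fl/fl controls and 291 and 192 after double deletion. Over all kept wells it was at 0.439 and 5.77 against 84.6 and 40.1 CPM, and its part in the results was not tested. Without the wells highest in the fibroblast, mural or blood endothelial list the differences in member share were -6.74 points for Tie1 and -20.5 points for Tie1/2 deletion. Of the proliferation and interferon lists 1 of 6 genes each was lower, and of 8 immediate early and stress genes 1 was higher, beside the same shares of all genes as above.

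The Tie receptors were read in every plate first, since they check the labels. Over all kept wells Tie1 was at 2349, 2716, 2683 and 2563 CPM on control plates, 697 and 632 after Tie1 deletion and 710 and 476 after double deletion. In the chosen wells it was at 2208, 2890, 2696 and 2836 CPM on control plates. After Tie1 deletion members had 506 and 590 CPM and other wells 720 and 639. After double deletion members had 1513 and 1701 CPM and other wells 687 and 470. On the control plates members and other wells were close, the other wells having 2385, 2678, 2679 and 2491 CPM, and on the double-deleted plates the members were well above them. The difference of the deletion effect between members and other wells was 1.23 on the log2 scale for Tie1 and did not pass the test (adjusted p = 0.117, edgeR quasi-likelihood test). Among the 11 members with double deletion, Tie1 ranged from 0 to 4218 CPM, 1 well at 0 and another at 3 counts.

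Tek was a little higher in members of the 6 plates without double deletion (log2 ratio 0.47 ± 0.25, 6 of 6). Members had 249, 362, 366 and 417 CPM on control plates and 323 and 360 after Tie1 deletion, and the other wells 221, 315, 280, 257, 204 and 220. After double deletion Tek had 0 counts in 10 of the 11 members, and 113 counts (338 CPM) in the remaining well. Over all kept wells the level was 32.3 and 54.1 CPM after double deletion against 299 and 291 in its controls, a log2 change of -2.77 (SE 0.31, edgeR adjusted p = 0.00768). The gene totals include exons outside the deleted part, which the sources used here do not name. Ptprb, the phosphatase that acts on Tie2, was higher in the members of 8 of 8 plates (0.48 ± 0.23).

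**Figure D3:**
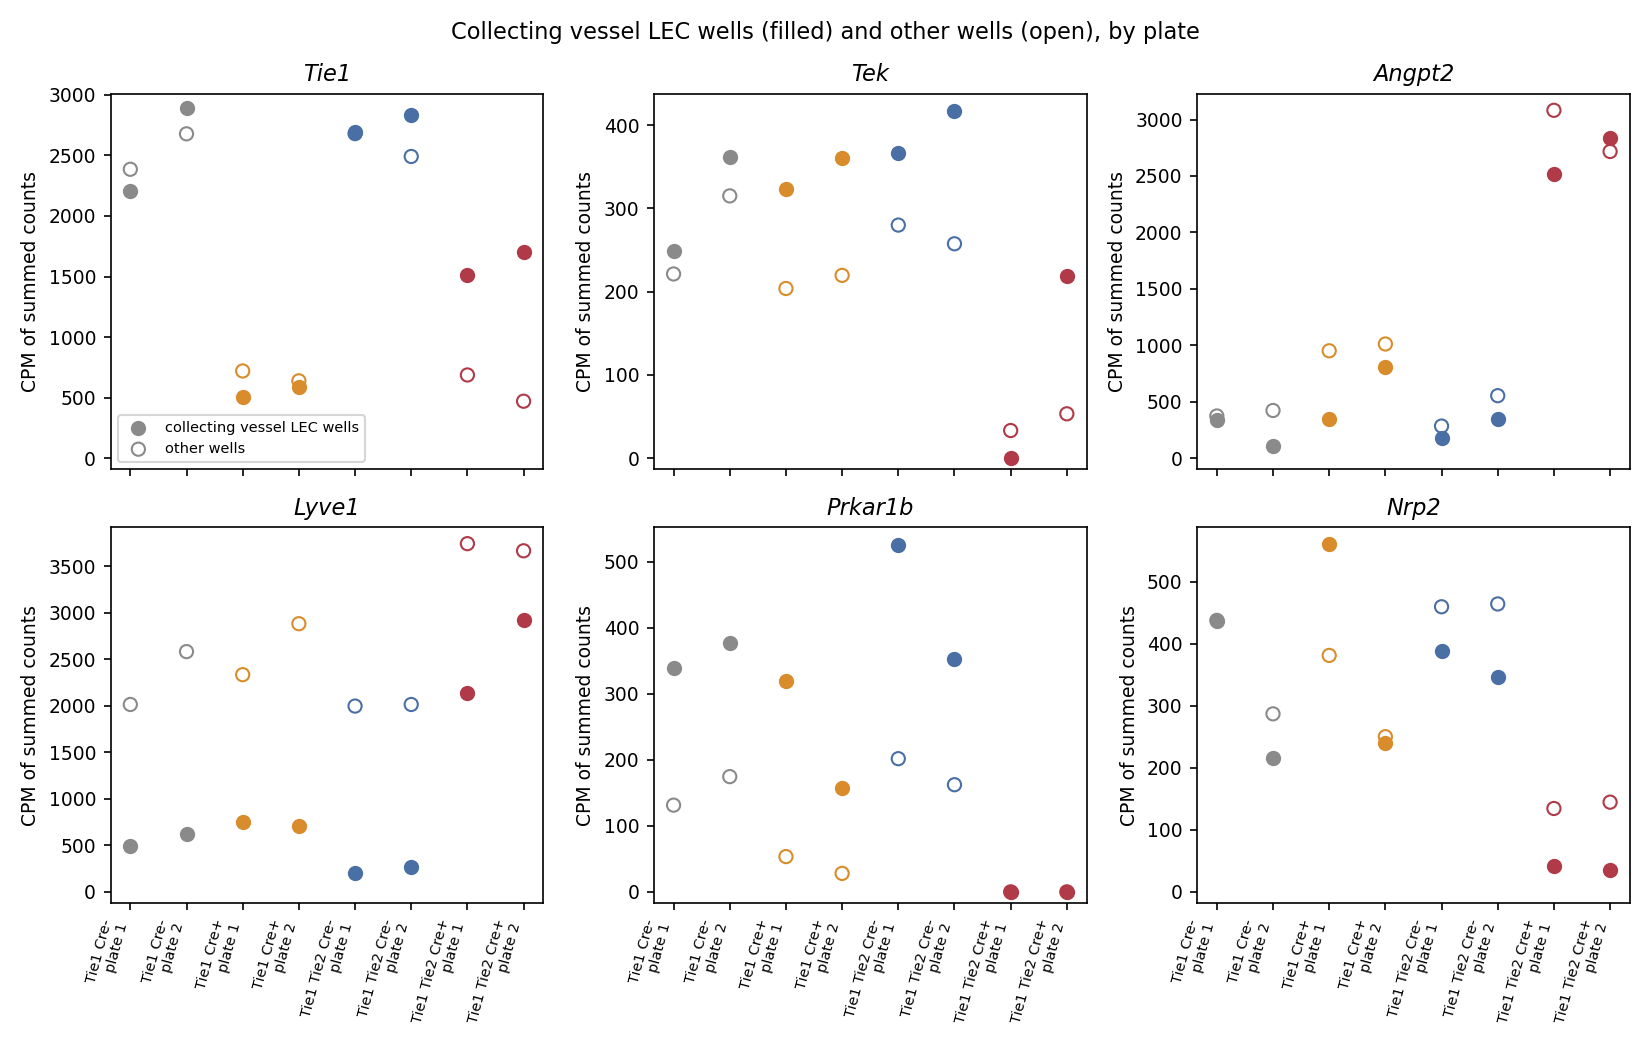
CPM of Tie1, Tek, Angpt2, Lyve1, Prkar1b and Nrp2 by plate, filled points for members and open points for other wells, 1 point per plate. Lyve1 in members is 199 to 625 CPM on control plates and 2138 and 2920 after double deletion, and Prkar1b is at 0 there.

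ANGPT2 is the ligand that Angpt2 encodes. Its level in members was 335, 105, 181 and 350 CPM on control plates, 345 and 808 after Tie1 deletion and 2517 and 2834 after double deletion. Other wells were at 374, 423, 285 and 554, then 951 and 1012, then 3082 and 2717. The gene rose with double deletion over all kept wells (log2 2.94, SE 0.33, edgeR adjusted p = 0.00750). Within the few members the rise was 3.23 (SE 0.63) and missed the threshold (adjusted p = 0.0798). After Tie1 deletion the change within members was 1.47 (SE 0.59, adjusted p = 1).

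Within members, counts were summed per plate and 14365 genes tested. In a sum of wells, fewer expressing cells and less RNA per cell cannot be told apart. For Tie1 deletion edgeR called no gene (0 of 14365), with 358 at an unadjusted p under 0.05, while DESeq2 called 62 and limma 1. The smallest p belonged to Tie1 itself (log2 -2.20, SE 0.25, adjusted p = 0.165), followed by Itih2, Bcl3, Steap4 and Mb21d2, none of which passed. Itih2 had 96.2 and 77.5 CPM in control members and 0.630 and 0 after deletion.

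For Tie1/2 deletion 29 genes (0.202% of all tested) were called within members, 1 higher (0.00696%) and 28 lower (0.195%). The double-deleted sums rest on 9 and 2 wells, 1872043 and 515127 counts, and leaving out 1 plate changed the count of calls every time. DESeq2 called 2173 genes and limma 1117. The edgeR count was 3117 without double-deleted replicate 1 and 849 without replicate 2, where the lone plate was assumed to vary like the other groups, and 2 to 12 without any other plate (2 without Tie1fl/fl,Tie2fl/fl Cre- replicate 1). With the replicate number as a block it was 7, and 3 with a block in both strains. The double-deleted members also stood at lower scores, with medians of 3.54 and 3.18 against 4.22 and 4.63 in their controls. Of the 29 genes, 18 (62.1%) had gone with the score in 6 of 6 plates in the direction of their call. Lyve1, Prkar1b, Btnl9, Tgfa, Tmem158, Bambi and Fam129a were among them. These 18 calls are a description and no test, and the part of the lower scores in them was not tested. In the fit over all kept wells 12 of these 18 and 5 of the other 11 were called, and Lyve1, Bambi and Gas2l1 were not. The higher gene was Lyve1, at 199 and 268 CPM in controls and 2138 and 2920 after deletion (log2 3.32, SE 0.32, edgeR adjusted p = 0.0137). Genes with no count in the 11 wells are given as bounds from 3 counts over both plates against the control mean. Smart-seq reads are copies made by PCR and carry no molecular identifiers, so here and below such bounds cover counting error only, not how few cells were sampled. Igfbp5, an IGF-binding protein (519 and 668 CPM in controls), was at least 472-fold lower, Prkar1b, a regulatory subunit of protein kinase A (526 and 353), at least 350-fold lower, Gucy1a1, a subunit of the nitric oxide receptor, at least 222-fold lower and Btnl9 at least 192-fold lower. Tgfa was at least 183-fold lower, Tmem158 145-fold, Ptn, a heparin-binding growth factor, 141-fold, Bambi, a decoy receptor of BMP and TGF-β, 137-fold, Fam129a 90.9-fold and Gas2l1 79.2-fold. The median log2 change of all genes was -0.84 in these sums.

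Averaged over both deletions, 12 genes (0.0835%) were called within members, 1 higher (0.00696%) and 11 lower (0.0766%). Lyve1 was the higher one (log2 1.86, SE 0.21, adjusted p = 0.0370), and Prkar1b, Btnl9, Serping1, Pmp22 and Tie1 (-1.55, SE 0.17, adjusted p = 0.0359) were among the lower by edgeR. Lyve1, Prkar1b, Btnl9 and Pmp22 had gone with the score in 6 of 6 plates. Their calls are a description and no test, and the part of the lower scores in them was not tested. The difference between the deletions was called for none of 14365 genes by edgeR, with 1914 at an unadjusted p under 0.05, 1244 by DESeq2 and 1 by limma. Its smallest adjusted p was 0.0504, shared by Clca3a1, Prelp, Igfbp5 and Prkar1b. With the block the average gave 2 calls. Averages without a plate gave 0 to 2 calls, other than 2296 and 501 without a double-deleted plate. Whether a deletion acted otherwise on members than on other wells was also tested, in 19590 genes. The edgeR test called 0 genes for Tie1 deletion (430 unadjusted; DESeq2 100) and 0 for Tie1/2 (2389 unadjusted; DESeq2 1842), Lyve1 having a difference of 2.38 (adjusted p = 0.0894).

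Because so few members remained, the highest 20% of each plate by the score, 54 to 71 wells, were compared as well. These wells stand at the same rank in each plate but at lower scores after deletion, down to -0.60 and -1.21 on the double-deleted plates. In 15710 genes Tie1 deletion gave 0 calls by edgeR (793 unadjusted) and Tie1/2 deletion 72 (0.458%), 6 higher (0.0382%) and 66 lower (0.42%), or 20 with a block of same-numbered plates in both strains. Of the 72 genes, 3 belong to the score (Mmrn2, Ccdc3 and Tgm2). Another 51 had gone with the score in 6 of 6 plates, 47 of them higher in members and lower here and 4 the reverse, so 54 of the 72 (75%) give a description and no test here. Over all kept wells, where no well was chosen by the score, 56 of the 72 (77.8%) were called too. The 18 others included Eln, Fndc1, Igfbp5, Gucy1a1, Fn1 (fibronectin) and Tie1. The deletion effects differed for 9 genes here (0.0573%), 1 with a positive (0.00637%) and 8 with a negative sign (0.0509%), but 8 of the 9 belong to the score or go with it, so these are not read as tests. Of the 29 genes called within members, 16 (55.2%) were among the 72 (22.2%). Gas2l1 was at 135 and 33.1 CPM there against 122 and 92.0 in controls, so the groups overlapped. Gucy1a1 was 5.10-fold lower, Igfbp5 30.2-fold and Btnl9 63.4-fold.

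Genes that go with the score are therefore given as values in the top wells and tested over all kept wells. In the top wells Nos3 was at 383 and 564 CPM in the controls and at 32.1 and 32.2 after double deletion, Thbd at 434 and 475 against 65.4 and 29.4, and Emcn at 430 and 437 against 101 and 108. Over all kept wells Nos3 changed from 201 and 274 CPM to 16.9 and 13.3 (log2 -3.94, SE 0.42, edgeR adjusted p = 0.00730) and Thbd from 206 and 240 to 60.8 and 56.3 (-1.90, SE 0.30, adjusted p = 0.0317). Emcn missed the threshold there (-1.35, SE 0.28, adjusted p = 0.0918). Eln, the elastin gene, which did not follow the score, went from 641 and 724 CPM to 67.1 and 67.4 over all kept wells (-3.32, SE 0.22, adjusted p = 0.00177). Lyve1 and Angpt2 go with the score in the opposite direction. In the top wells Lyve1 was at 142 and 254 CPM in controls and 2890 and 2659 after double deletion, and Angpt2 at 169 and 317 against 3152 and 2899. Over all kept wells the change of Lyve1 was 1.21 and missed the threshold (adjusted p = 0.066), while that of Angpt2 passed it, as given above. With Tie1 alone deleted, the top wells had 781 and 789 CPM of Lyve1 against 570 and 611 in controls.

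Markers of other cells also differed in these top wells. Double-deleted replicate 1 had 124 CPM of Acta2, 87.2 of Myh11, 51.1 of Des, 36.3 of Notch3 and 35.3 of Rgs5, all mural genes, against at most 44.5, 8.19, 8.52, 0.956 and 3.63 CPM on the plates without double deletion. On double-deleted replicate 2 the same genes were at 27.9, 1.54, 17.7, 4.63 and 2.85 CPM. That plate had 265 CPM of Col1a1 and 248 of Col1a2, fibroblast genes, and 40.8 of Flt1, against at most 74.9, 101 and 4.73. Dcn was at 106 CPM there and at 247 in Tie1fl/fl,Tie2fl/fl Cre- replicate 1. Their part in the results was not tested.

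Whether Tie1/2 deletion acted otherwise than Tie1 deletion was tested over all kept wells as well. In 20279 genes the effects differed for 17 (0.0838%), each lower after double deletion, with 1508 at an unadjusted p under 0.05. With a block of same-numbered plates in both strains 0 were called. Whichever plate was left out, most of the 17 were no longer called, though such a fit leaves 1 plate in a group. The clearest was Prkar1b, at 174 and 210 CPM in controls against 82.7 and 45.4 with Tie1 deleted, and at 274 and 202 against 0.0295 and 0.0373 with both (edgeR adjusted p = 0.00191). Eln was at 618 and 719 CPM against 539 and 530 with Tie1 deleted, and at 641 and 724 against 67.1 and 67.4 with both (log2 difference -2.98, SE 0.30, adjusted p = 0.0271). Cldn11, of the valve list, was at 375 and 362 against 435 and 401 CPM with Tie1 deleted (log2 difference -2.67, SE 0.28, adjusted p = 0.0311). Of the 17 genes, 8 had been higher in members of 6 of 6 plates and Cldn11, Eln and 7 more had not. All 17 are listed at the end. Nos3 (log2 difference -3.75, adjusted p = 0.0996), Mmrn2 (-3.28, adjusted p = 0.112) and Lyve1 (0.95, adjusted p = 0.528) missed the threshold.

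**Figure D4:**
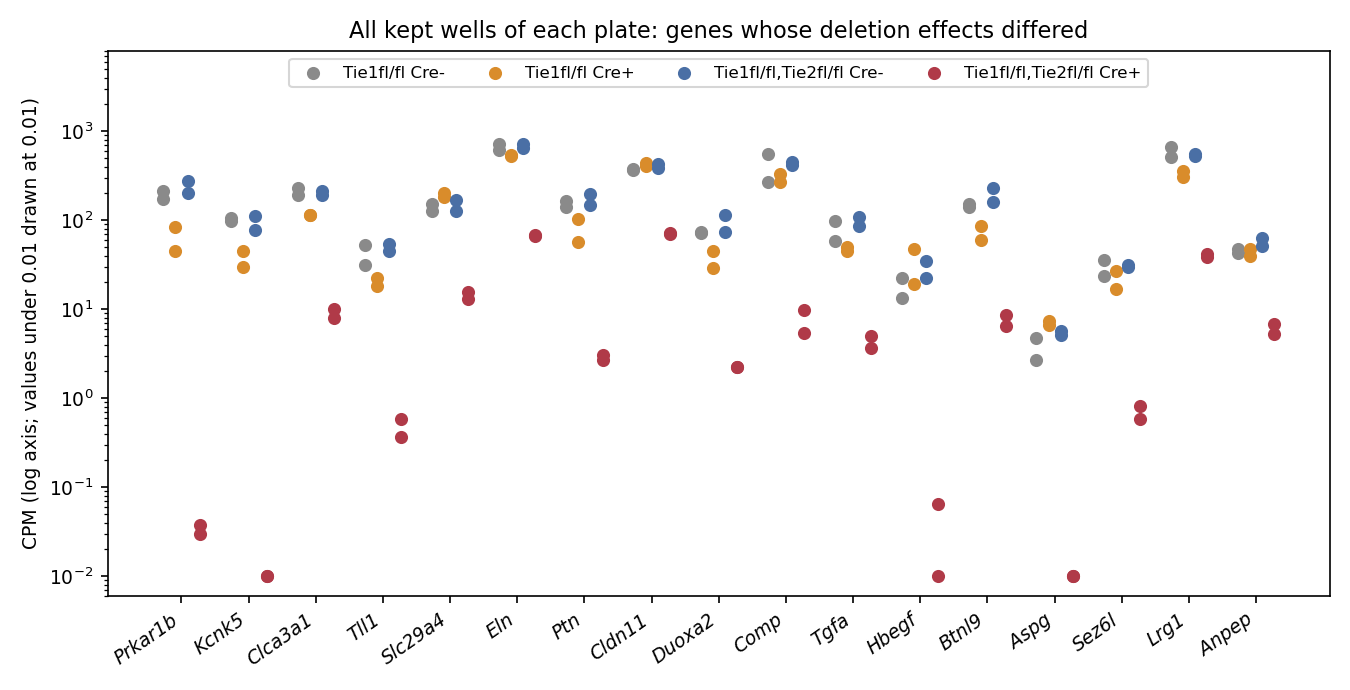
CPM, on a log axis, of the 17 genes whose deletion effects differed over all kept wells, 1 point per plate, with values under 0.01 drawn at 0.01. In each gene both double-deleted plates lie below the other 6 plates, with no count of Kcnk5 and Aspg and with Eln at 67.1 and 67.4 CPM.

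The score genes were followed over all kept wells, where the choice of wells plays no part. Mmrn2 was at 371 and 330 CPM in Tie1fl/fl,Tie2fl/fl controls and 32.6 and 17.4 after double deletion (log2 -3.76, SE 0.39, adjusted p = 0.00701), and Ccdc3 at 315 and 277 against 22.9 and 9.89 (-4.11, SE 0.54, adjusted p = 0.0138). Procr went from 182 and 170 to 52.0 and 35.2 CPM (-1.97, SE 0.30, adjusted p = 0.0243) and Tgm2 from 1721 and 1864 to 604 and 397 (-1.79, SE 0.27, adjusted p = 0.0229). These 4 of the 7 collecting vessel genes fell, while 0.75% of the 20279 genes tested did. Tsc22d1 (-1.09, adjusted p = 0.187) and Bgn (-1.52, adjusted p = 0.129) missed the threshold. Plvap had 809 and 913 CPM in controls and 1534 and 1133 after deletion (0.67, adjusted p = 0.350). None of the 5 capillary genes of the score was called, Piezo2 having 211 and 189 CPM against 409 and 292 (0.85, adjusted p = 0.273). Outside the score the capillary gene Tppp3 was called lower, at 428 and 470 CPM in controls and 94.2 and 95.2 after double deletion (-2.22, SE 0.33, edgeR adjusted p = 0.0221). Lyve1, also of the capillary list, was higher and missed the threshold, as given above.

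Over 20279 genes, all kept wells gave 205 calls (1.01%) for Tie1/2 deletion, 53 higher (0.261%) and 152 lower (0.75%), and 0 for Tie1 deletion by edgeR, with 871 at an unadjusted p under 0.05. The Tie1/2 count was 124 with a block of same-numbered plates in both strains. It was 61 without Tie1fl/fl,Tie2fl/fl Cre- replicate 1, 96 without Cre- replicate 2, 116 without Cre+ replicate 2 and 163 to 205 without any other plate. Cldn11, of the valve list, fell from 381 and 429 CPM to 72.3 and 68.9 (-2.49, SE 0.21, adjusted p = 0.00348), and Nrp2, a co-receptor of VEGF-C, from 444 and 440 to 132 and 144 (-1.66, adjusted p = 0.0355). Igfbp5 fell by 6.51 on the log2 scale (adjusted p = 0.00857). Prkar1b had 2 and 4 counts in 701 wells, and Kcnk5, a potassium channel, none, at least 5508-fold lower. Of the 29 genes called within members, 17 were also called over all wells.

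**Figure D5:**
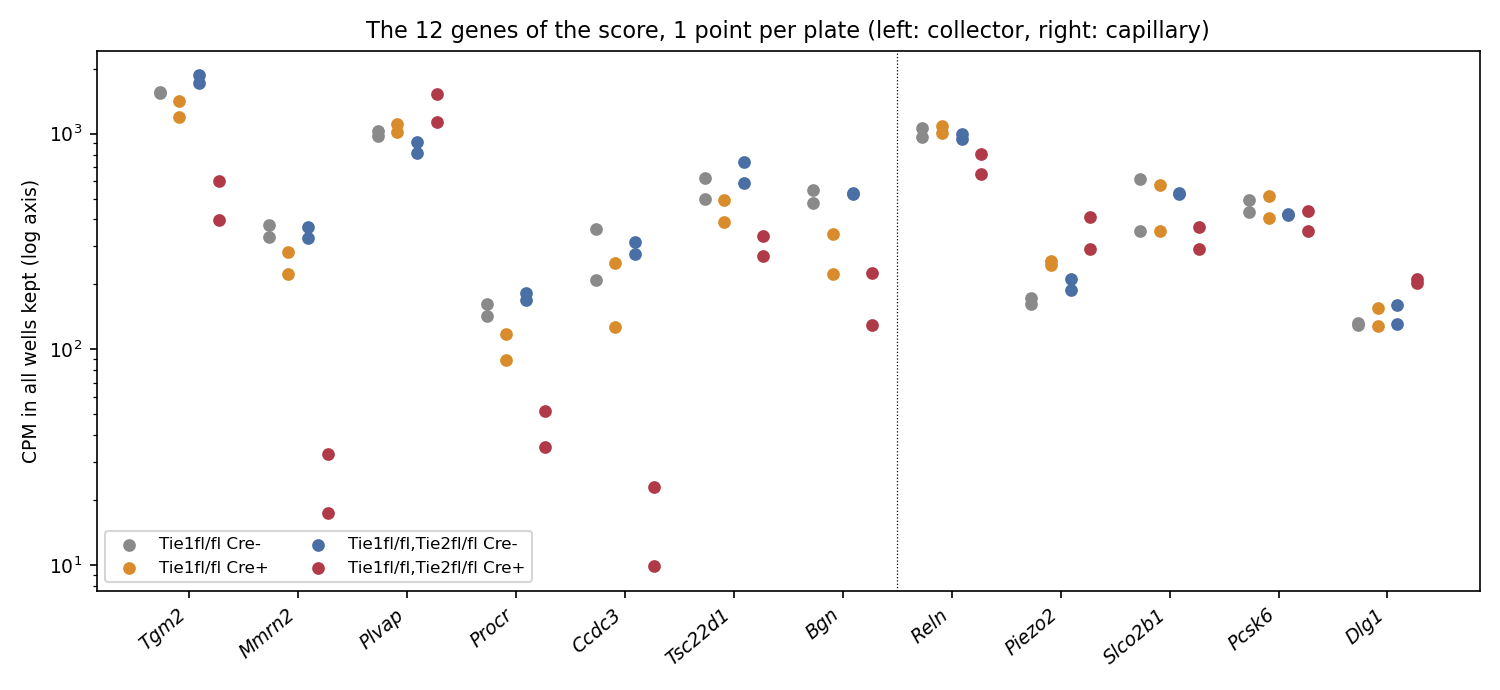
CPM, on a log axis, of the 12 score genes over all kept wells of each plate, 1 point per plate, collecting vessel genes left and capillary genes right of the dotted line. Mmrn2, Ccdc3, Procr and Tgm2 are lowest on the 2 double-deleted plates, while Plvap is at 1534 and 1133 CPM there.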

How the data were processed

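Single-cell Smart-seq data from 8 plates of sorted LECs were analysed, each plate being 1 sample and 4 groups having 2 plates. The authors deposited raw counts per gene and well, made, per the submitters' processing notes, with TopHat2 2.1.1, SAMtools 0.1.18 and Subread featureCounts on GRCm38/mm10. 4 tables named genes by symbol and 4 by Ensembl ID, with 1 of each kind in every group. They were joined on 42560 genes, 784 of them through older symbols, which held 95.9% to 97.1% of the counts of a plate. Rows of spike-ins and reporters stayed out of library sizes. The droplet libraries of the series were not used here.

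Wells needed 50000 counts and 1000 detected genes. Members and gene lists were chosen with earlier results of these data known, and some lists came from an earlier analysis of them. Members and other wells were compared as log2 ratios of summed CPM per plate with a pseudocount of 1 CPM, without a test. Deletions were tested with edgeR 4.0.16 (R 4.3.3) on counts summed per plate, with TMM factors, filterByExpr, 1 fit of 4 groups, the quasi-likelihood test and Benjamini-Hochberg adjustment over all genes at 0.05. Shares were tested by exact two-sided permutation over plates. limma 3.58.1 and DESeq2 1.42.0 were alternatives, and the scripts were tested on simulated data. Scores and shares were computed with pandas 2.3.3, numpy 2.4.6 and scipy 1.17.1 under Python 3.11.15, and plots with matplotlib 3.10.9.

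Genes named for members against other wells were the 15 with the largest positive and the 10 with the largest negative mean ratio among genes at 20 CPM or more with the same sign in 8 of 8 plates, outside the score, Xist and Y-linked genes. For deletions within members they were the 10 largest rises and falls among called genes of at least 10 CPM without overlap between plates, or the 5 smallest p where fewer than 5 genes were called. The score genes, Tie pathway and lineage genes and list examples were named besides. The ranking over 6 plates, the fit over all wells, the share of wells at 50 CPM and the share at the low end of the score were added after seeing the data. Genes outside these rules, such as those of the highest 20% of a plate, were named after their values were seen. Wells were sorted on CD45, so few leukocytes can be among them, and doublets were not called, since 1 cell was sorted per well.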

Additional observations from a re-analysis of the deposited data

Results flagged for a closer look

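Over all kept wells, the effect of Tie1/2 deletion differed from that of Tie1 deletion in 17 genes by the edgeR interaction test, each with the lower level after double deletion. With same-numbered plates as a block in both strains 0 were called. Most of the 17 were also no longer called whichever plate was left out, in fits with 1 plate in a group. Prkar1b had 2 and 4 counts left after double deletion (adjusted p = 0.00191), Kcnk5 none (adjusted p = 0.00688) and Aspg none (adjusted p = 0.0393). Kcnk5 was at 97.2 and 106 CPM in Tie1fl/fl controls, 29.5 and 45.4 after Tie1 deletion and 76.8 and 112 in the double-floxed controls. Hbegf, a ligand of the EGF receptor, had 0 and 7 counts left (adjusted p = 0.0393), and Tgfa, another, was at 3.67 and 4.97 CPM against 107 and 86.2 in its controls (adjusted p = 0.0377).

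The matrix genes Eln (log2 difference -2.98, adjusted p = 0.0271), Comp (-5.34, adjusted p = 0.0377) and Tll1, a metalloprotease that processes collagen (-5.64, adjusted p = 0.0226), were among the 17. Comp was at 415 and 452 CPM in the double-floxed controls and 5.39 and 9.79 after double deletion, against 270 and 555 and then 271 and 327 for Tie1 deletion. The others were Clca3a1 (-3.59, adjusted p = 0.0136), Slc29a4 (-3.78, adjusted p = 0.0271), Ptn (-4.96, adjusted p = 0.0271), Cldn11 (-2.67, adjusted p = 0.0311), Duoxa2 (-4.37, adjusted p = 0.0361), Btnl9 (-3.69, adjusted p = 0.0393), Sez6l (-4.96, adjusted p = 0.0393), Lrg1 (-2.90, adjusted p = 0.0393) and Anpep (-3.15, adjusted p = 0.0438). In these sums over wells, fewer cells that express these genes and less RNA per cell cannot be told apart. Which of them it was in single wells was not tested.

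An eGFP row, which the labels do not mention, held 1517 counts in 221 of 384 wells of Tie1fl/fl Cre+ replicate 2 and 16 counts in 14 wells of Tie1fl/fl Cre- replicate 2. It held 1867 counts in 241 wells of Tie1fl/fl,Tie2fl/fl Cre- replicate 1 and 0 in Tie1fl/fl,Tie2fl/fl Cre+ replicate 1. No such row was recorded for the other 4 tables. An hENG row, also not in the labels, held 412 counts in 17 wells of Tie1fl/fl,Tie2fl/fl Cre- replicate 1. It held 14 counts on Tie1fl/fl,Tie2fl/fl Cre+ replicate 1 and 8 on each replicate 2 plate of Tie1fl/fl.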

How the results depend on the processing

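The fall in member share kept its direction in every alternative run. With the 90th percentile it was -3.09 points for Tie1, -11.4 for Tie1/2 and -7.25 over both strains, against -7.02, -20.0 and -13.5. With the collecting vessel genes alone it was -12.7 for Tie1 and -16.3 over both, and without Slco2b1 -21.3 for Tie1/2. Leaving out 1 plate gave -9.22 to -4.82, -21.0 to -19.0 and -14.6 to -12.4. Above the genotype-blind threshold the differences ranged from -15.3 to -4.70, -31.0 to -16.2 and -23.2 to -10.4 points.

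Genes higher in every plate numbered 54, but 89 with the 90th percentile, 310 without both double-deleted plates and 70 to 146 leaving out 1 plate. Genes lower numbered 220, and then 374, 495 and 290 to 339. At the 90th percentile only 7 plates had a member, so the percentile and the number of plates changed together there. For Tek the log2 ratio of members to other wells was -0.03, but 0.0035 with mean CPM per well, 0.31 with a pseudocount of 10 CPM, 0.47 without both double-deleted plates and -0.32 to 0.69 leaving out 1 plate. With the 90th percentile it turned to -0.64 for Npr2, -0.059 for Pla2g6, -0.66 for Adcy4 and -0.14 for Tie1, and Tie1 was -0.072 without both double-deleted plates.

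Calls within members depended strongly on the tool and the plates. For Tie1 deletion (0) DESeq2 gave 62, no filter 1 and limma 1. For Tie1/2 deletion (29) DESeq2 gave 2173, no filter 528, limma 1117, table layout as a term 10, the highest 20% 72, all wells 205 and leaving out 1 plate 2 to 3117. The difference (0) gave 1244, 171, 1 by limma, 9 in the highest 20%, 17 over all wells and 0 to 2241 leaving out 1 plate. The average (12) gave 1452, 240 without a filter, 1 with table layout, 67 in the highest 20% and 0 to 2296. For members against other wells, Tie1 deletion gave 100 calls by DESeq2, and Tie1/2 deletion 1842 by DESeq2, 21 without a filter, 2 in the highest 20% and 0 to 2591. The cause was not tested. With a replicate block in the Tie1fl/fl strain the Tie1/2 count was 7 and the average 2, and with a replicate block in both strains 3 and 2. That block left 20 Tie1/2 calls and no difference in the highest 20%, and 124 Tie1/2 calls and no difference over all wells. The labels give same-numbered Tie1fl/fl plates the same sex but no shared litter or day. In both strains the plate identifiers of same-numbered Cre- and Cre+ plates are consecutive. Deviations correlated at 0.0586 (Tie1fl/fl) and 0.0230 (Tie1fl/fl,Tie2fl/fl), so the pairing is unsettled. Of the group values under the other settings, 204 stayed alike and 59 moved. Of the gene values 1715 kept their side, 104 passed the threshold, 135 no longer did, 9 reversed and 7 moved.

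The 9 and 2 members left after double deletion, the 2 plates per group and a class cut from a score limit these results. The highest 20% of each plate, the fit over all wells, the block in both strains and the counts without both double-deleted plates were chosen after seeing the data.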
